A study of Mus musculus with 6 samples.

Results

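The genes described here are genes of blood and lymphatic endothelium, the cells that line vessels, with the vessel growth factor Vegfa, in E14 mouse embryonic submandibular glands (eSMGs). They are the 10 genes Pecam1, Cdh5, Kdr, Flt1, Tek, Flt4, Vegfa, Madcam1, Prox1 and Lyve1, found by symbol among the 23260 gene lines of the count files, and all 10 were listed. The eSMGs came from ICR mouse embryos at embryonic day 14 and were cultured as whole glands, so that epithelium, mesenchyme, nerve and vessel cells were measured together. Control eSMGs were cultured without the drug, and AMD3100-treated eSMGs for 6 h with 50 µM AMD3100, an antagonist of the chemokine receptor CXCR4. Each group had 3 tubes (replicates) of up to 10 pooled glands. The labels do not state whether the tubes came from separate litters, so that p-values measure the spread between these tubes, which may be technical.

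Vessels grow under VEGF and angiopoietin signals. VEGFA, released by tissue cells, acts on the receptors KDR and FLT1 of blood endothelium, FLT4 is the VEGFC receptor of lymphatic endothelium, and TEK is the receptor of the angiopoietins. PECAM1 and VE-cadherin (the product of Cdh5) join endothelial cells at their junctions, PROX1 is the transcription factor that sets lymphatic identity, and LYVE1 is a hyaluronan receptor of lymphatic endothelium that some macrophages also carry. MADCAM1 is an adhesion molecule of venules through which lymphocytes enter mucosal tissue. CXCR4 is itself carried by endothelial cells of growing vessels, which makes these genes of interest under its antagonist.

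Of the 10 genes, Madcam1 and Prox1 were lower in all 3 AMD3100 libraries than in any control library, and none was higher in all 3. Of the 13610 genes tested, 4.17% lay below in this way and 7.44% were without overlap in either direction. Madcam1 was at 2.13 ± 0.810 normalized CPM in control and 0.120 ± 0.123 in AMD3100-treated eSMGs (SD, n = 3 each), and Prox1 at 2.45 ± 0.635 and 0.783 ± 0.599 CPM (SD, n = 3 each). CPM here are read counts relative to library sizes that were scaled with edgeR's TMM method. A colour map of the study, made from these same libraries, shows both genes as lower, so that neither is independent evidence of a direction. No gene passed edgeR's quasi-likelihood test with an adjusted p-value under 0.05, and of the 10 genes Madcam1 alone had an unadjusted p-value under 0.05 with a fold change over 1.5, as did 1.68% of all genes tested. This call of Madcam1 was lost with replicate number as a block and on leaving out any 1 of the 6 libraries. A lower level in whole glands cannot be told apart from fewer cells of a type.

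The 2 genes whose groups did not overlap are shown here by the 250 bases before their annotated starts, taken from RefSeq on GRCm38.p6, the mm10 build that the submitters' processing notes name. The window of Madcam1 is chr10:79664309-79664558 on the + strand, and that of Prox1, before the outermost of its starts, is chr1:190170828-190171077 on the - strand, both written 5′ to 3′.
Madcam1: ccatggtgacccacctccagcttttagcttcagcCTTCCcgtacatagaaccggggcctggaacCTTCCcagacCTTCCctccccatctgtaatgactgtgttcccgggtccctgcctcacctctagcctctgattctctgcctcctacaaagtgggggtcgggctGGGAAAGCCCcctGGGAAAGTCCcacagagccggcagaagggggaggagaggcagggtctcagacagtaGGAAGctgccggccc
Prox1: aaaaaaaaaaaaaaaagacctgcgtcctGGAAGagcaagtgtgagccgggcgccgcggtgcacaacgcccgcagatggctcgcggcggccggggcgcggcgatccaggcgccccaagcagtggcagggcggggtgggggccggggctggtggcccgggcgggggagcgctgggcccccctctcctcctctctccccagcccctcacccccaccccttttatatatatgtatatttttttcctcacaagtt
The capitals mark matches, on either strand, to a κB-type motif, a form of site that NF-κB can bind (GGGAAA, then any 2 bases, then CC), or to GGAAG, a form of site of ETS factors, which many endothelial genes carry. The κB-type motif occurred 2 times in the Madcam1 window, as GGGAAAGCCC and GGGAAAGTCC, from 84 and 71 bases before the start. It occurred in no other member window of the 9 found (those of Prox1, Kdr, Flt1, Flt4, Tek and Vegfa) and in 1.63% of all 32851 windows of this length. These letters were chosen after the Madcam1 window was read, so the match is a description. GGAAG occurred 4 times in the Madcam1 window and once in this Prox1 window, against at least once in 64.1% of all windows, and the Tek window held none. The other Prox1 window found, chr1:190169516-190169765, held 3 matches to GGAAG. The matches of the 2 motifs did not overlap.

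The 6 libraries held between 9051595 and 14393031 counts, and 3 counts, taken as the smallest level to be read, stood at between 0.173 and 0.368 CPM. AMD3100 replicate 2 stood apart by its zeros. Among genes whose mean over the other libraries was 1 to 4 CPM, 30.5% had 0 counts in AMD3100 replicate 2, against 8.39% and 4.11% in AMD3100 replicates 1 and 3 and 23.2%, 16.3% and 4.6% in control replicates 1, 2 and 3. The lowest share was in AMD3100 replicate 3, the shallowest library, and the part of depth in the zeros was not tested. The ribosomal precursor Rn45s took 32.5% of the counts in AMD3100 replicate 2 and 32.4% in control replicate 1, the libraries with the highest shares of zeros, and 27.5%, 20.2%, 16.2% and 22.7% in control replicates 2 and 3 and AMD3100 replicates 1 and 3. The part of Rn45s in the zeros was not tested. Of the 10 endothelial genes, 6 had 0 counts in AMD3100 replicate 2, namely Cdh5, Flt1, Tek, Flt4, Madcam1 and Lyve1. The replicate 3 libraries of both groups also stood apart, with 974 and 1198 CPM summed over 9 skeletal muscle markers against 109 to 229 CPM in the other libraries, and with 1615 and 1466 CPM over 8 mesenchymal markers against 3664 to 3785 CPM.

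Across the 13610 genes that passed edgeR's filter on low counts, 0 had an adjusted p-value under 0.05 (Benjamini-Hochberg), and 228 had an unadjusted p-value under 0.05, all with a fold change over 1.5. DESeq2 called 5 genes at the adjusted threshold and edgeR with a replicate block called 3, or 0.022%, of which none was among the 10. Of the 10 genes, 7 passed the filter and 1 of these, Madcam1, passed the unadjusted thresholds, against 1.68% of all genes (1.28% lower and 0.397% higher in AMD3100). With the replicate block 0 of the 7 passed them, against 4.39% of all genes and 2.9% in the lower direction. Groups did not overlap for 2 of the 7 genes, both lower in AMD3100, against 4.17% of all genes in that direction, 3.28% in the other and 7.44% in either. The median log2 fold change was -0.85 over the 7 genes and 0.02 over all genes tested, and 5 of the 7 were below 0, as were 47.8% of all genes. Pecam1 was the middle gene of the 7 in this fit, with the replicate block (-1.58) and without AMD3100 replicate 3 (-0.52). With the block Flt1 was below 0 as well. Tek, Flt4 and Lyve1 did not pass the filter, so these counts do not cover them. Madcam1 passed it through its control libraries alone, so that the counts and the median over the 7 genes are a description.

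**Figure D1:**
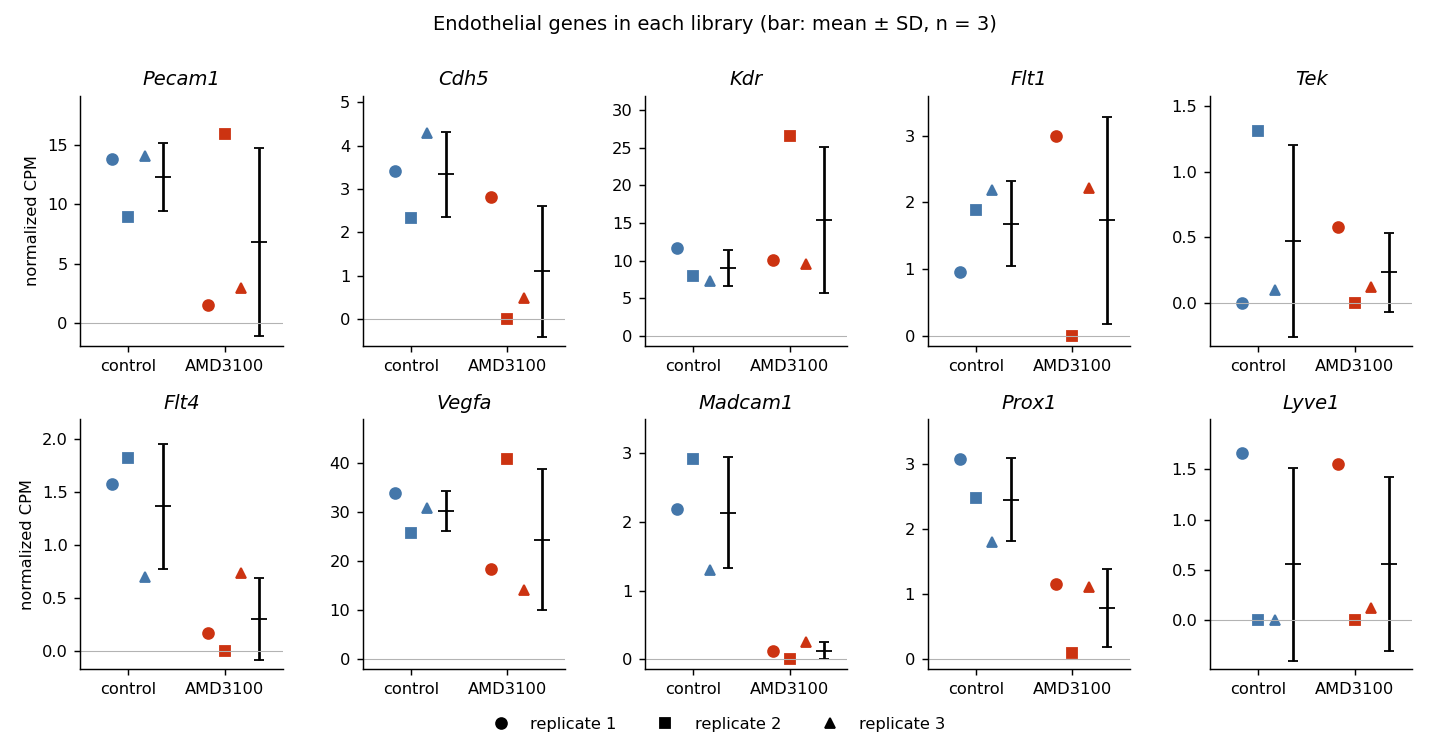
Normalized CPM (vertical axes, each starting below 0 to show the error bars) of the 10 endothelial genes in the 3 control (blue) and 3 AMD3100 (red) libraries, with marker shapes for replicate numbers and the mean ± SD of each group beside the points (n = 3). Madcam1 and Prox1 are the panels without overlap between the groups, and AMD3100 replicate 2 (red square) is the highest library for Pecam1, Kdr and Vegfa but at 0 for 6 other genes.

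Madcam1, the venule adhesion molecule, lies on chromosome 10 from 79664559 to 79668542 (positions here are those of RefSeq on GRCm38.p6). Control replicates 1, 2 and 3 gave 25, 40 and 13 counts of it, and AMD3100 replicates 1, 2 and 3 gave 2, 0 and 2. In CPM these were 2.19, 2.91 and 1.30 in control and 0.115, 0 and 0.246 in AMD3100-treated eSMGs, so that every AMD3100 library was under the floor of 3 counts and every control library was above it. Over the libraries of a group, 78 counts stood against 4, a control level 20.2 times that of AMD3100 (95% exact interval 7.56 to 75.8, which covers counting error only). The log2 fold change was -4.09 ± 1.56 (SE, edgeR unadjusted p = 0.0282, adjusted p = 1.0). Blocked on replicate number it became -4.22 (edgeR unadjusted p = 0.0772, adjusted p = 0.777, with a range of adjusted p over the alternatives of 0.774 to 1.0), and without AMD3100 replicate 2 it was -3.53 (unadjusted p = 0.0569), which in both cases ended its call at the unadjusted threshold. Leaving out any of the other 5 libraries also ended it, with log2 fold changes between -4.89 and -3.78.

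Prox1, the lymphatic transcription factor, lies on chromosome 1 from 190118035 to 190170827 and is also known from neurons and other embryonic tissues. The control libraries held 35, 34 and 18 counts of it and the AMD3100 libraries 20, 1 and 9, or 3.06, 2.48 and 1.80 CPM against 1.15, 0.0922 and 1.11 CPM. AMD3100 replicate 2, at 1 count, was under the floor of 3 counts and lay far below the other treated libraries. All 3 treated libraries lay below every control library. The log2 fold change was -1.63 ± 1.24 (SE, edgeR unadjusted p = 0.224, adjusted p = 1.0). Without AMD3100 replicate 2 it was -1.10 (edgeR unadjusted p = 0.352). Neuronal markers (10 genes, the most abundant being Prph at 231 CPM) summed to 1286, 1071 and 1132 CPM in control and 1141, 923 and 1619 CPM in AMD3100 libraries, with overlapping groups and with AMD3100 replicate 2 lowest. The part of neurons in the Prox1 level was not tested.

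Lyve1 and Flt4 are the other lymphatic genes of the 10. Lyve1, on chromosome 7 from 110850607 to 110862953, gave 19, 0 and 0 counts in controls and 27, 0 and 1 under AMD3100, so that it was read above the floor in the replicate 1 libraries only and the groups overlapped. Flt4, the VEGFC receptor, on chromosome 11 from 49609679 to 49652739, gave 18, 25 and 7 counts in controls and 3, 0 and 6 under AMD3100, or 1.58, 1.82 and 0.698 CPM against 0.173, 0 and 0.737 CPM. The groups of Flt4 overlapped only through the replicate 3 libraries, and AMD3100 was lower in 2 of the 3 same-numbered pairs. Over the libraries, 50 counts of Flt4 stood against 9, a control level 5.74 times that of AMD3100 (95% exact interval 2.80 to 13.3, counting error only). Neither gene passed the filter. Without the filter, the log2 fold change of Flt4 was -2.15 ± 2.0 (SE, edgeR unadjusted p = 0.301, adjusted p = 1.0), and that of Lyve1 was 0.04 ± 2.43 (SE). Macrophage markers (12 genes in the files, the most abundant being Stab1, a scavenger receptor whose 3′ end another gene overlaps on the opposite strand, at 90.2 CPM) summed to 204, 212 and 311 CPM in control and 234, 240 and 305 CPM in AMD3100 libraries. Timd4 was at 0 in all libraries. In both replicate 3 libraries, where the macrophage sum was highest, Lyve1 was at 0 or 1 count. The part of macrophages in the Lyve1 level was not tested.

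Pecam1 and Cdh5, the junction genes of endothelium, were each low in 2 of the 3 AMD3100 libraries, but not in the same 2. Pecam1, on chromosome 11 from 106654213 to 106715281, was at 13.8, 8.96 and 14.1 CPM in control and 1.5, 15.9 and 2.95 CPM in AMD3100 libraries. AMD3100 replicates 1 and 3 were below every control library and AMD3100 replicate 2 was above every one. The log2 fold change of Pecam1 was -0.85 ± 0.80 (SE, edgeR unadjusted p = 0.314, adjusted p = 1.0). It was -1.58 with the replicate block (edgeR unadjusted p = 0.0762) and -1.68 with the study's quantile normalization and limma-voom (unadjusted p = 0.0567). Without AMD3100 replicate 2 it was -2.47 ± 0.61 (SE, edgeR unadjusted p = 0.00412, adjusted p = 1.0), which passed the unadjusted thresholds, and it was -0.38 without AMD3100 replicate 1 and -0.52 without AMD3100 replicate 3. Cdh5, on chromosome 8 from 104101613 to 104144504, showed another order, with 3.41, 2.33 and 4.29 CPM in control and 2.82, 0 and 0.491 CPM in AMD3100 libraries. Each AMD3100 library lay below the control library of its number, yet the groups overlapped, and the log2 fold change was -1.56 ± 1.42 (SE, edgeR unadjusted p = 0.301). It was -0.99 without AMD3100 replicate 2, -3.75 without AMD3100 replicate 1, -2.84 with the replicate block and -2.72 with quantile normalization and limma-voom. Of these 2 genes, AMD3100 replicate 1 was low for Pecam1, which platelets and some white blood cells also carry, and AMD3100 replicate 2 was low for Cdh5.

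The VEGF receptors of blood endothelium did not share this order either. Kdr, on chromosome 5 from 75932827 to 75979072, encodes the main signalling receptor of VEGFA. It was at 11.7, 8.01 and 7.28 CPM in control and 10.1, 26.5 and 9.58 CPM in AMD3100 libraries, with overlapping groups and with AMD3100 replicate 2 above all others. Its log2 fold change was 0.77 ± 0.51 (SE, edgeR unadjusted p = 0.165, adjusted p = 1.0), and 0.13 without AMD3100 replicate 2. Flt1, whose product binds VEGFA and can act as a decoy for it, is on chromosome 5 as well (147561604 to 147726438). Its level was 0.963, 1.89 and 2.19 CPM in control and 3.0, 0 and 2.21 CPM in AMD3100 libraries, a log2 fold change of 0.05 ± 1.47 (SE, edgeR unadjusted p = 0.975). The direction of Flt1 turned with the block, to -0.66 (edgeR unadjusted p = 0.755). Tek, the angiopoietin receptor, on chromosome 4 from 94739086 to 94874976, gave 0, 18 and 1 counts in controls and 10, 0 and 1 under AMD3100, and did not pass the filter. A library of each group was at 0 for Tek, and the groups overlapped.

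Vegfa, the ligand, which epithelium and mesenchyme can release and which is not made by endothelium alone, lies on chromosome 17 from 46016993 to 46032377. The control libraries held 386, 354 and 310 counts of it and the AMD3100 libraries 318, 442 and 115, or 33.8, 25.8 and 30.9 CPM against 18.3, 40.7 and 14.1 CPM. As for Pecam1, AMD3100 replicates 1 and 3 were below every control library and AMD3100 replicate 2 was above. The log2 fold change of Vegfa was -0.31 ± 0.43 (SE, edgeR unadjusted p = 0.495, adjusted p = 1.0). Without AMD3100 replicate 2 it was -0.89 (edgeR unadjusted p = 0.0468, adjusted p = 1.0), past the unadjusted thresholds, and it was -0.14 without AMD3100 replicate 1 and -0.05 without AMD3100 replicate 3.

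**Figure D2:**
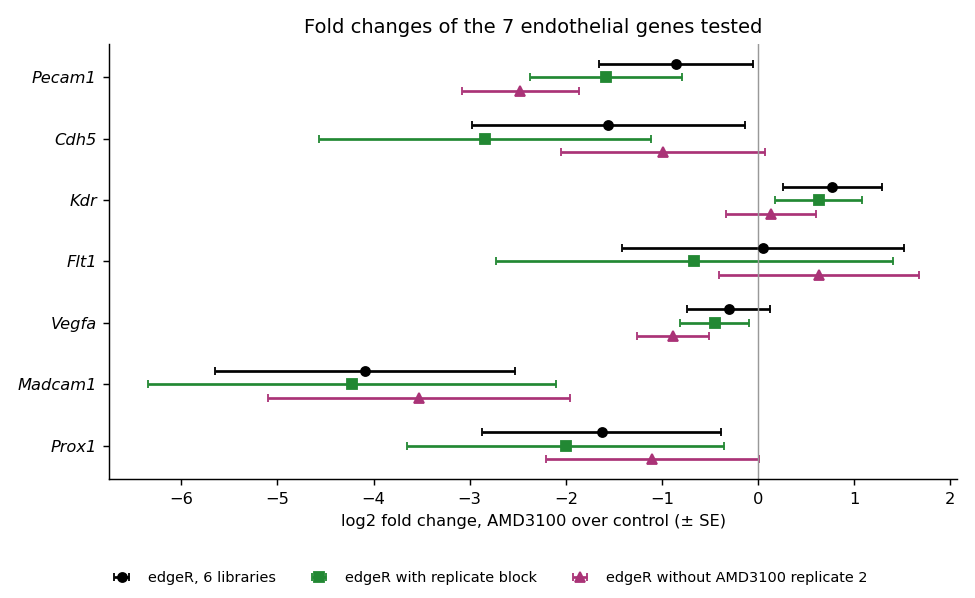
Log2 fold change of AMD3100 over control (horizontal axis, ± SE) of the 7 endothelial genes that passed the filter, in edgeR's test with all 6 libraries (black circles), with replicate number as a block (green squares) and without AMD3100 replicate 2 (purple triangles). Madcam1 lies between -4.22 and -3.53 in the 3 fits, whereas Pecam1 moves from -0.85 to -2.47 and Flt1 changes sign.

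Other endothelial genes were read to see whether the vessel signal as a whole differed. A list of 34 further genes of blood endothelium summed to 317, 371 and 541 CPM in control and 315, 410 and 436 CPM in AMD3100 libraries, with means of 410 ± 117 in control and 387 ± 63.9 in treated eSMGs (SD, n = 3 each). The groups overlapped and their means differed by less than the SD of either. The list's most abundant gene was Cd34, a sialomucin also found on fibroblasts and blood progenitors, at 79.7, 85.7 and 176 CPM in control and 91.8, 81.9 and 149 CPM in AMD3100 libraries. Without Cd34, Efnb2 and Egfl7, the 3 most abundant genes of the list, the sums were 164 ± 47.0 and 158 ± 31.0 CPM (SD, n = 3 each), a setting chosen after these values were seen. At their 3′ ends Cd34, Egfl7, Eng, Ephb4, Ecscr, Esm1, Nos3, Plvap and Ramp2 of this list overlap other annotated genes, and the strand setting of the counting is not given in the sources used here, so that their values are uncertain. Of the 28 genes of the list that passed the filter, 0 passed the adjusted or the unadjusted thresholds in edgeR or DESeq2, 10 were higher and 18 lower, and the median log2 fold change was -0.07 against 0.02 over all genes tested. The median lay between -0.29 and 0.26 with each library left out. Sox18, a transcription factor of lymphatic and blood vessels, was listed at 0 in all 6 libraries, although Erg, Fli1, Esam and Clec14a were read.

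S1pr1, the sphingosine-1-phosphate receptor that steadies vessel sprouts, was the gene of the 34 without overlap between the groups and was chosen after its values were seen. It was at 5.87, 10.6 and 7.98 CPM in control and 4.72, 3.32 and 4.79 CPM in AMD3100 libraries, a log2 fold change of -0.93 ± 0.54 (SE, edgeR unadjusted p = 0.119, adjusted p = 1.0). That is 1 of 28 genes, against 7.44% of all genes.

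Madcam1 and Prox1 were also read relative to other endothelial genes. Both were already seen to be lower in every AMD3100 library, and 3 against 3 libraries cannot pass 0.05 in an exact test, so that the ratios are a description and no further support. Per 100 counts of Pecam1 and Cdh5 together, there were 12.7, 25.8 and 7.07 counts of Madcam1 in control and 2.67, 0 and 7.14 in AMD3100 libraries, where Pecam1 and Cdh5 gave 75, 173 and 28 counts. The log2 ratio, with 1 count added to Madcam1, was -2.85 ± 0.90 in control and -5.10 ± 2.14 in AMD3100 libraries (SD, n = 3 each, exact two-sided permutation p = 0.2, where 0.1 is the smallest p that 3 against 3 allows). AMD3100 replicate 3, with the fewest counts, overlapped control replicate 3. The difference of -2.25 was -1.08 without AMD3100 replicate 2. Per 100 counts of the 34 other endothelial genes, control libraries had 0.690, 0.786 and 0.240 of Madcam1 and AMD3100 libraries 0.0366, 0 and 0.0564, a difference in the log2 ratio of -3.49. As the sum of the 34 genes differed little between the groups, this ratio largely restates the level of Madcam1.

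Prox1 gave 17.8, 21.9 and 9.78 counts per 100 counts of Pecam1 and Cdh5 in control and 26.7, 0.578 and 32.1 in AMD3100 libraries. AMD3100 replicates 1 and 3 were above all controls and AMD3100 replicate 2 was below them, so that the groups overlapped (difference in the log2 ratio -0.63, exact two-sided permutation p = 1.0). Without AMD3100 replicate 2 this difference was 0.96, in the opposite direction. Against the 34 other endothelial genes, the difference for Prox1 was -1.87. Over the 4 ratios, of 2 genes to 2 denominators, the lowest Benjamini-Hochberg adjusted p of the exact tests was 0.267.

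**Figure D3:**
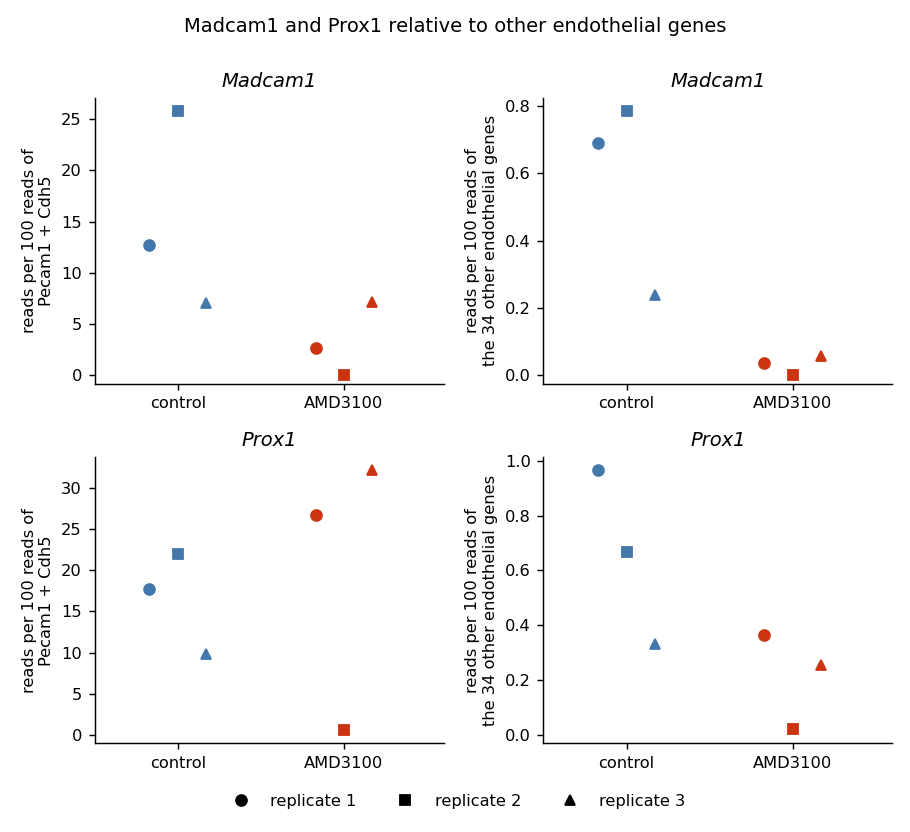
Counts of Madcam1 (top) and Prox1 (bottom) per 100 counts (vertical axes) of Pecam1 plus Cdh5 (left) or of the 34 other blood endothelial genes (right) in each control (blue) and AMD3100 (red) library, with marker shapes for replicate numbers. Only the upper right panel has no overlap, with control libraries at 0.240 to 0.786 and AMD3100 libraries at 0 to 0.0564.

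Partners of the members were read from further fixed lists, and 0 genes of these lists passed the adjusted or the unadjusted thresholds in edgeR or DESeq2. Of 12 other lymphatic genes, 7 passed the filter, with 5 higher, 2 lower and a median log2 fold change of 0.12, or between -0.01 and 0.26 with each library left out. The most abundant was Nr2f2, a transcription factor of veins that mesenchyme also makes in quantity, at 717, 528 and 421 CPM in control and 692, 652 and 467 CPM in AMD3100 libraries. Of the VEGF and angiopoietin partners, 9 passed the filter, with 3 higher, 6 lower and a median log2 fold change of -0.30. Their sum was 312, 339 and 377 CPM in control and 289, 306 and 272 CPM in AMD3100 libraries, so that every treated library lay below every control library (343 ± 32.7 and 289 ± 17.0 CPM, SD, n = 3 each). The median rested on single libraries, being -0.29 without control replicate 2 but -0.09 and -0.05 without control replicates 1 and 3, and 0.01, -0.10 and -0.11 without AMD3100 replicates 1, 2 and 3. Their most abundant gene was Nrp1, a co-receptor of VEGFA, at 142 ± 26.2 CPM in control and 115 ± 30.2 CPM in treated eSMGs (SD, n = 3 each), with a log2 fold change of -0.30 ± 0.32 (SE, edgeR adjusted p = 1.0). Vegfb, a ligand of FLT1 that was chosen after its values were seen, was at 33.1, 30.7 and 31.6 CPM in control and 34.4, 34.8 and 40.0 CPM in AMD3100 libraries, without overlap (log2 fold change 0.19, standard error 0.27, edgeR unadjusted p = 0.494). That is 1 of the 9 partners, against 7.44% of all genes.

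Genes that work with MADCAM1 were read beside it. Of the 11 venule adhesion genes and partners, 9 passed the filter, with 4 higher, 5 lower and a median log2 fold change of -0.01, or between -0.26 and 0.40 with each library left out. Nkx2-3, a transcription factor known to be needed for Madcam1 in mucosal tissue and named here after its values were seen, was at 7.79, 12.5 and 15.0 CPM in control and 8.12, 8.39 and 17.6 CPM in AMD3100 libraries, with overlapping groups (log2 fold change -0.05, standard error 0.48, edgeR unadjusted p = 0.917). Ltbr, the lymphotoxin receptor and the most abundant of the list, was at 189 ± 110 and 203 ± 126 CPM (SD, n = 3 each), and both replicate 3 libraries were high, at 315 and 349 CPM. Selp and Glycam1, adhesion genes of activated and lymph node vessels, were at 0 in all 6 libraries.

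Vegfa is a gene that low oxygen raises, and 18 genes of the hypoxia response were read with it. Of the 16 that passed the filter, 6 were higher and 10 lower, with a median log2 fold change of -0.04, or between -0.16 and -0.03 with each library left out. Of the 18 genes, Pgk1 and Ero1l had 3′ end reads that all aligned nearly as well to another place. That share was 63.6% for Bnip3, 36.4% for Ldha and 18.2% for Egln1, so that the values of these genes are uncertain. Ddit4, the most abundant, was at 230 ± 61.5 CPM in control and 179 ± 49.9 CPM in AMD3100-treated eSMGs (SD, n = 3 each). Epas1, the hypoxia-inducible factor first known from endothelium and chosen after its values were seen, was at 2.01, 1.82 and 2.09 CPM in control and 3.92, 3.59 and 5.89 CPM in AMD3100 libraries. All treated libraries were above all controls, with a log2 fold change of 1.17 and an SE of 0.76 (edgeR unadjusted p = 0.158, adjusted p = 1.0). Epas1 was the 1 gene of these 16 without overlap, against 7.44% of all genes.

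Markers of the other cells of the gland were read in the same libraries. Pericyte and smooth muscle markers (11 genes, Acta2 the most abundant at 106 CPM) summed to 145, 163 and 472 CPM in control and 145, 142 and 532 CPM in AMD3100 libraries, so that both replicate 3 libraries stood apart and the groups overlapped. Erythroid markers (15 genes, Hba-a1 the most abundant), which follow the blood left in the glands, summed to 9586, 24803 and 16787 CPM in control and 9129, 14567 and 16240 CPM in AMD3100 libraries, where Hba-a1 shares most of its 3′ end with Hba-a2, and Hbb-b1 with Hbb-bs and Hbb-b2 with Hbb-bt have nearly the same counts and may count reads more than once. The sum was lower in AMD3100 in each of the 3 same-numbered pairs, although the groups overlapped. Of the 12 erythroid genes that passed the filter, 1 was higher and 11 lower, with a median log2 fold change of -0.40 that was -0.04 without control replicate 2, -0.24 without AMD3100 replicate 1, -0.70 without control replicate 1 and -0.91 without AMD3100 replicate 3, and 0 passed the unadjusted thresholds. The part of blood in the levels of the vessel genes was not tested. Salivary epithelial markers (10 genes, Krt15 the most abundant) summed to 2236, 2243 and 1492 CPM in control and to 2689, 2343 and 3473 CPM in AMD3100 libraries, above all controls. Krt15 made up more of this sum than any other gene, with 1042, 1012 and 888 CPM in control and 1367, 1016 and 2472 CPM in AMD3100 libraries, and its groups overlapped. Of the 10 genes, 7 were higher and 3 lower, and 0 passed the unadjusted thresholds, or 1 with the replicate block. Cdh1, named after its values were seen, was the 1 without overlap (337, 302 and 211 CPM against 344, 394 and 507 CPM), where 7.44% of all genes were without overlap. The median log2 fold change was 0.20 and lay between -0.01 (without control replicate 3) and 0.38 with each library left out. Mesenchymal markers (8 genes, the collagen gene Col3a1 the most abundant) overlapped in their sums, at 3061 ± 1252 and 2953 ± 1288 CPM (SD, n = 3 each), with 2 genes higher, 6 lower and a median log2 fold change of -0.13. That median was -0.19 with the replicate block. With each library left out it lay between -0.26 (without control replicate 3) and -0.03 (without control replicate 2). Myog, a transcription factor of muscle formation, was the most abundant skeletal muscle marker, and of the 8 muscle genes that passed the filter 4 were higher and 4 lower. Their median log2 fold change of 0.05 was 1.05 without control replicate 3. Without AMD3100 replicate 3 it was -1.26, and 4 of the 8 then passed the unadjusted thresholds. Of the pericyte genes 4 were higher and 5 lower, of the macrophage genes 7 and 3, and of the neuronal genes 4 and 6. In these lists a further 3 genes, chosen after their values were seen, were without overlap, and all were lower in AMD3100. They were 1 each of the 8 mesenchymal, 9 pericyte and 10 macrophage genes tested. The 10 neuronal and 8 muscle genes tested held none. Of all genes, 4.17% lay below in this way and 7.44% were without overlap in either direction. Osr1, a transcription factor of mesenchyme, was at 184, 172 and 170 CPM in control and 148, 140 and 161 CPM in AMD3100 libraries (log2 fold change -0.23, edgeR unadjusted p = 0.397). Abcc9, a channel subunit of pericytes, was at 38.5, 24.5 and 30.2 CPM against 23.8, 16.9 and 21.1 CPM (log2 fold change -0.59, edgeR unadjusted p = 0.103). C1qb, a complement gene of macrophages, was at 9.46, 9.91 and 10.3 CPM against 7.83, 9.03 and 8.60 CPM (log2 fold change -0.22, edgeR unadjusted p = 0.60). The part of these epithelial markers in the lower Madcam1 and Prox1 levels was not tested.

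**Figure D4:**
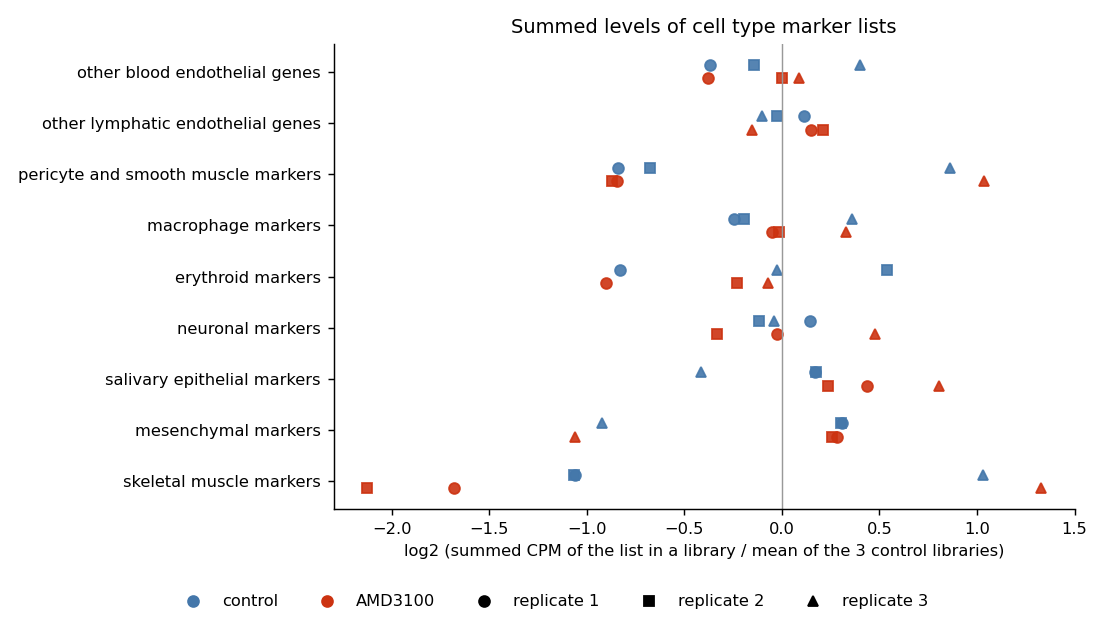
Summed CPM of 9 marker lists in each library, as log2 of the ratio to the mean of the 3 control libraries (horizontal axis), with control in blue, AMD3100 in red and marker shapes for replicate numbers. Blood endothelial genes overlap between the groups, whereas pericyte, mesenchymal and skeletal muscle markers separate both replicate 3 libraries (triangles) from the rest.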

How the data were processed

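RNA from 3 control and 3 AMD3100 tubes of E14 eSMGs was sequenced from the 3′ end of transcripts (50 bp single reads). The authors deposited raw read counts per gene symbol. The submitters' processing notes name Bowtie2, edgeR and mm10. The annotation is not given in the sources used here. Of 23282 lines per file, 22 identical repeats were left out.

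Counts were compared with edgeR 4.0.16 in R 4.3.3 (filterByExpr, TMM, glmQLFit, glmQLFTest, condition only, Benjamini-Hochberg over 13610 genes). The study's quantile normalization was an alternative (limma-voom 3.58.1), as were DESeq2 1.42.0, other scalings and filters, a replicate block, robust estimation, Rn45s left out and each library left out. Over genes, deviations from the group means correlated between same-numbered libraries at 0.156, 0.147 and 0.549. The replicate numbers shared by the labels were therefore taken to pair the libraries. Only the replicate 3 pair stood out. Control replicate 2 with AMD3100 replicate 1 gave 0.167 and control replicate 1 with AMD3100 replicate 2 gave 0.132. The correlations thus do not show a pairing by number for replicates 1 and 2. Standard errors came from the coefficient and its F. A 3′ read is counted once per transcript whatever its length. Fold changes compare levels within a gene, whereas the list sums, the ratios and the naming of most abundant genes set different genes side by side. Reads cut from the last 300 bases of each member's longest coding transcript (GENCODE vM1 on NCBIM37, minimap2 2.31-r1302) aligned to 1 place, and no other annotated gene overlapped the last 300 bases of a member. Of such reads from listed genes, all of Ccl21a, 81.8% of Krt8 and 45.5% of Tubb3 aligned nearly as well to another place. Krt18 and Myh8 had smaller shares. The values of these genes are uncertain, as are those of the hypoxia genes and globins named above.

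The genes and lists were chosen with earlier results of these data known. All 10 members were named, and of each list the most abundant gene and the genes past the unadjusted thresholds. Other genes named, those at 0 in every library included, were chosen after their values were seen.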

Additional observations from a re-analysis of the deposited data

How the results depend on the processing

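Of the 7 endothelial genes tested, 0 had an adjusted p-value under 0.05 under any alternative that was run, and Pecam1, Cdh5, Kdr, Vegfa, Madcam1 and Prox1 kept their direction in all of theirs. Flt1 reversed from 0.05 to -0.52 with quantile normalization and limma-voom and to -0.66 with the replicate block, and lay between -0.61 and 0.63 with each library left out. The number of genes past the adjusted threshold was 5 in DESeq2 and 3 with the replicate block, against 0. The number past the unadjusted thresholds was 598 with the replicate block and 613 without both replicate 3 libraries, against 228, and lay between 163 and 547 with each library left out (547 without control replicate 3 and 451 without AMD3100 replicate 3). The 1 member past the unadjusted thresholds, Madcam1, was lost (0 members) without a filter, with at least 10 counts in every library, which it could not pass, with the replicate block, and without both replicate 3 libraries. With 1 library left out, between 0 and 2 members passed, the 2 being Pecam1 and Vegfa without AMD3100 replicate 2. Without Madcam1 and Prox1, a setting added after the data were seen, 0 members passed, which follows from leaving out the 1 that had passed. The difference in the log2 ratio of Madcam1 to Pecam1 plus Cdh5 lay between -3.19 and -1.08 with each library left out, and that of Prox1 between -1.51 and 0.96, reversed without AMD3100 replicate 2. The causes were not tested. The block changed no other call on a member.

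Of 192 list medians under alternatives, 164 moved by less than the spread between same-numbered pairs, and 173 of 192 list counts past the unadjusted thresholds, all 0 to begin with, were again 0. With the replicate block, 2 skeletal muscle genes and 1 gene each of the hypoxia, pericyte, mesenchymal and salivary epithelial lists passed the unadjusted thresholds. Cdh5, Flt1, Tek, Flt4, Madcam1, Prox1 and Lyve1 rest on 0 to 52 counts a library. The floor of 3 counts in AMD3100 replicate 2, 0.277 CPM, covers counting error only. In that library 30.5% of genes with a mean of 1 to 4 CPM elsewhere had 0 counts, so a 0 there also allows higher levels.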
